A study of Mus musculus with 6 samples.

Results

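The genes described here encode enzymes that make foreign and reactive compounds harmless by attaching a water-soluble group to them or by reducing their carbonyl group. They were chosen by name: every protein-coding gene of the deposited table whose symbol starts with Gsta, Gstm, Gstp, Gstt, Gsto, Gstk, Gstz, Mgst, Ugt1a, Ugt2b, Sult or Akr1, which gave 78 of 54532 genes. The measured samples were pancreatic buds of mouse embryos taken at E12.5 and kept for 2 days in explant culture. The TBZ group (3 libraries) received 0.1 µM tetrabenazine throughout, and the Control group (3 libraries) received the vehicle. The medium of both groups held 10% fetal bovine serum and 0.1% DMSO. The labels give no strain, genotype or sex, and do not say whether each library came from a separate litter or from how many buds, so p-values measure only the spread between these libraries, which may be technical. Tetrabenazine blocks VMAT2, the transporter that loads monoamines into vesicles, and the comparison asks which transcripts of the cultured bud differ under it. It is itself a substrate of carbonyl reduction, which turns it into dihydrotetrabenazine.

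Glutathione S-transferases (the Gst genes) join glutathione to electrophiles, and their classes are named by Greek letters: alpha (Gsta), mu (Gstm), pi (Gstp), theta (Gstt), omega (Gsto), kappa (Gstk) and zeta (Gstz). The Mgst genes encode unrelated, membrane-bound enzymes with a similar activity. UDP-glucuronosyltransferases (Ugt1a, Ugt2b) add glucuronic acid, sulfotransferases (Sult) add sulfate, and the aldo-keto reductases of the Akr1 family reduce aldehydes and ketones with NADPH. Many of these genes are known from liver and gut, where several are induced through antioxidant response elements bound by the transcription factor NRF2.

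The libraries held between 35825033 and 50620936 counted reads. Defining markers of the pancreatic epithelium were present in every library, with Pdx1, the pancreatic and duodenal homeobox gene, at 28.6, 28.8 and 29.9 FPKM in TBZ and 26.3, 21.7 and 18.4 FPKM in Control replicates 1 to 3. FPKM is a level scaled by gene length and by the size of the library. Of the 13 epithelial markers 12 had a positive log2 fold change of TBZ over Control, and of the 16 acinar markers all 16 did. With edgeR 1 and 9 passed, against 0.154% of all tested genes higher in TBZ. The 1 epithelial gene was Cpa1, which is also among the 9 acinar genes. DESeq2 put 5 and 12 higher, against 1.1% of all genes, and the lists share Cpa1 and Ptf1a. Buds of the 2 groups thus also differed in markers, mainly acinar ones. Control replicate 3 had the highest summed markers of stomach and oesophagus, tissue that lies beside the bud. It also had the highest sums for mesothelium, for neural crest, glia and neurons, and for erythroid cells. The erythroid sum was 511, 442 and 543 FPKM in TBZ and 572, 530 and 611 FPKM in Control replicates 1 to 3. The mesothelium sum was 79.1, 98.8 and 79.4 FPKM in TBZ and 91.7, 90 and 129 FPKM in Control replicates 1 to 3. The neural crest, glia and neuron sum was 61.2, 61.5 and 59.4 FPKM in TBZ and 59.7, 55.4 and 73.9 FPKM in Control. The summed level of the 19 stomach and oesophagus genes was 63.3, 101 and 66.1 FPKM in TBZ and 106, 83.5 and 134 FPKM in Control replicates 1 to 3. Barx1, which is also on the mesenchyme list, made up most of that sum. It stood at 48.8, 75.5 and 53 FPKM in TBZ and at 77.7, 66.8 and 76.1 FPKM in Control. Tff1 of that list had no read in any library. In bulk RNA, fewer cells of a type and less RNA per cell cannot be told apart. Markers of hepatocytes, a cell type rich in conjugating enzymes, summed to 463 to 551 FPKM in TBZ and 398 to 480 FPKM in Control. Ambp made up most of that sum, at 377, 332 and 384 FPKM in TBZ and 323, 291 and 277 FPKM in Control replicates 1 to 3 (log2 0.30 ± 0.07 SE; edgeR adjusted p = 0.189; DESeq2 adjusted p = 0.00655). Of the 11 tested markers 7 had a positive and 4 a negative log2 fold change, Alb averaged 0.444 FPKM over the 6 libraries and Apoa1 0.795 FPKM, and Apob, Apoh, Fga, Fgg and Ahsg of that list lay under 0.1 FPKM on average.

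No member passed the test of TBZ against Control over all genes, and the members that came closest belonged to the glutathione S-transferases. The test was the edgeR quasi-likelihood test, and an adjusted p under 0.05 counted as changed. With it 0 of 48 tested members changed, and 0.187% of all 18226 tested genes did. At an unadjusted p under 0.05 there were 13 of the 48 members, 3 higher and 10 lower in TBZ, where all tested genes gave 9.61% (5.08% higher and 4.54% lower). DESeq2, which gave an adjusted p for 40 members and called 1.43% of genes (1.1% higher and 0.336% lower in TBZ), put 3 past the threshold: Gstp1 and Gstm1 lower and Gstt1 higher in TBZ. With no filter on low counts, edgeR itself put 7 members past the threshold (these 3 and the 4 Gsta genes), among 445 genes in all. The authors' deposited table lists the same 3 with adjusted p-values of 0.000127, 0.00122 and 0.034, against a background of 0.767% of its genes. That share is 222 of 28930 genes, among them 13429 for which DESeq2 gave no adjusted p. The 1.43% with DESeq2 is 222 of 15491 genes, so the shares differ in their base.

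In 13 of the 48 tested members (27.1%) the FPKM values of the TBZ libraries did not overlap those of the Control libraries, and this held for 15.4% of all tested genes. TBZ lay below Control in 10 of them (20.8%, against 7.13% of all tested genes) and above in 3 (6.25%, against 8.28%). Of the 48 tested members 29 (60.4%) had a log2 fold change below 0, as did 49.9% of all tested genes. The median log2 fold change of the tested members was -0.03 and that of all tested genes 0.00031. These counts rest on the members that passed a filter on low counts. Gsta1, Ugt1a6a and Ugt2b5 passed it through the Control group alone and Sult1b1 through the TBZ group alone, so the counts above partly reflect the filter. Ugt2b5 and Sult1b1 had overlapping groups, and Gsta1 and Ugt1a6a were lower in every TBZ library.

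**Figure D1:**
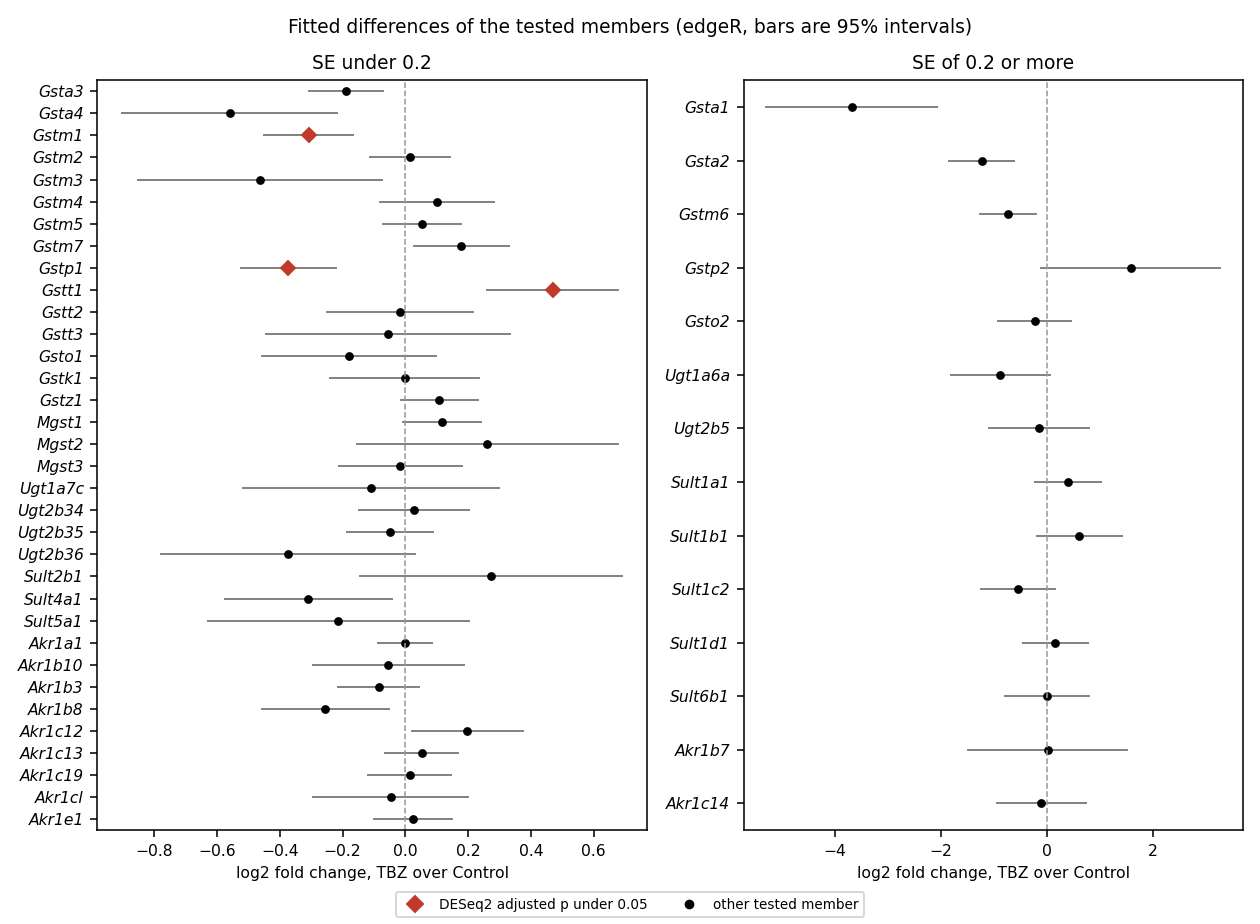
Log2 fold change of TBZ over Control (x axis) for the 48 tested members (y axis), with 95% intervals as bars, in 2 panels by the size of the SE, whose x axes differ. The 3 members that DESeq2 put past adjusted p 0.05 are drawn as diamonds: Gstm1 and Gstp1 lie left of 0 and Gstt1 right of it, while most others lie near 0.

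Fewer than the full set of these genes was expressed in the bud. A mean of at least 1 FPKM in a group was reached by 32 members, and 17 reached 10 FPKM. No read was counted in any library for 14 members, which a count of 0 bounds at 3 reads, or 0.0593 to 0.0837 CPM (counts scaled to library size), per library. For a gene that shares exons with others, such as Ugt1a8, this bound covers assigned reads only. A further 16 had too few reads to be tested, with at most 13 in a library. The members together took 0.202%, 0.196% and 0.2% of all counts in TBZ and 0.215%, 0.207% and 0.221% in Control replicates 1 to 3, so that each TBZ library lay below each Control library.

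Just 3 genes made up between 51% and 55.2% of the summed FPKM of all members in each library. Gstm1 had the highest mean over the 6 libraries at 195 FPKM, followed by Akr1a1 at 184 and Gstp1 at 147 FPKM. Mgst1 came next at 59.8 FPKM, then Gsta4 (43.6), Gsta3 (40), Gstm5 (35.8), Ugt2b34 (35.2), Akr1c13 (29.6), Gsto1 (29.3), Akr1c12 (28) and Gstm2 (23.9 FPKM). From Gsta4 to Akr1c12 each gene overlapped its neighbour in that order across the libraries. The order of the highest pair differed between the groups: Gstm1 lay below Akr1a1 in each TBZ library and above it in each Control library.

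**Figure D2:**
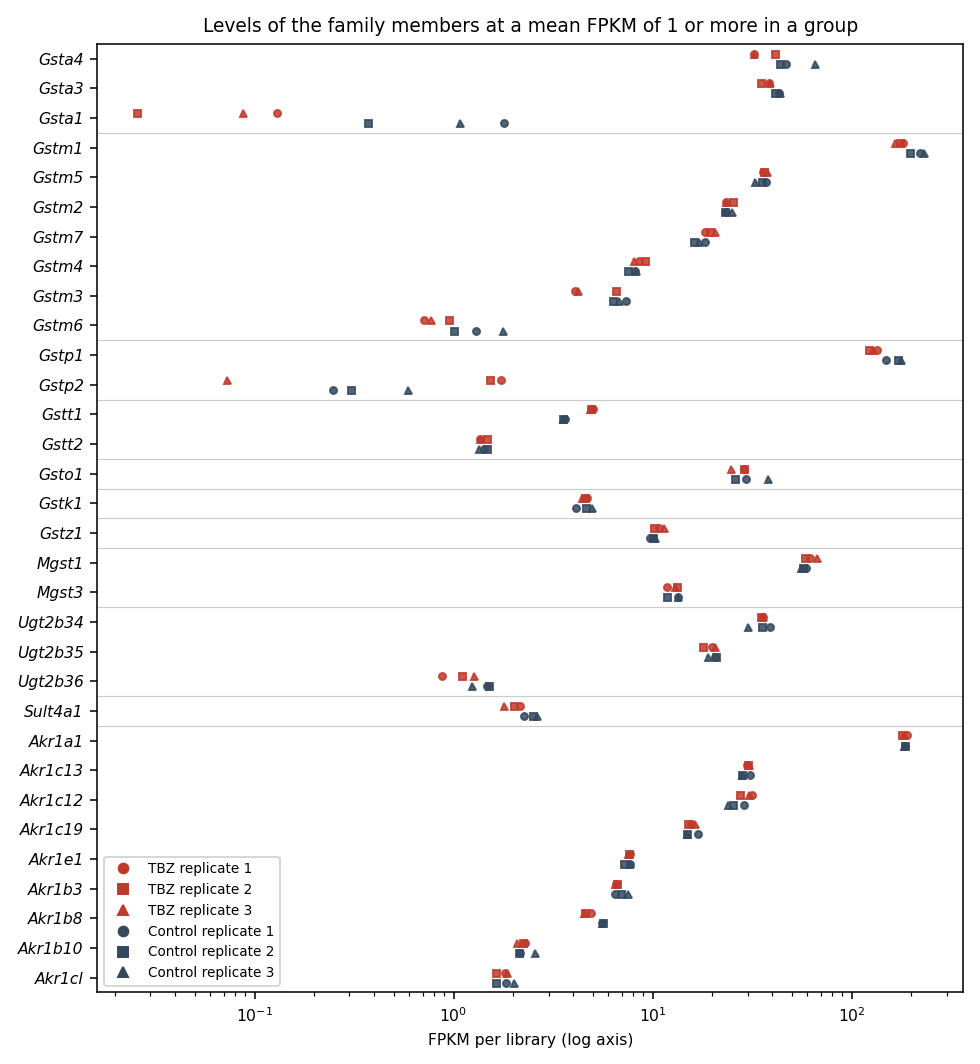
FPKM per library on a log axis (x) for the 32 members at a mean of 1 FPKM or more in a group (y), set out by family, with TBZ drawn above Control. Gstm1, Akr1a1 and Gstp1 lie above 100 FPKM in every library, while Gsta1 and Gstp2 spread widely among the libraries.

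Among the alpha class, all 4 genes were lower in every TBZ library than in any Control library, as were 7.13% of all tested genes. Gsta1 was tested only because its Control counts passed the filter, so it adds no support. None passed the edgeR threshold, and all 4 had a negative log2 fold change at an unadjusted p under 0.05, as did 4.54% of all tested genes. DESeq2 gave an adjusted p for Gsta2, Gsta3 and Gsta4, none under 0.05. Gsta1, Gsta2 and Gsta4 lie on chromosome 9 (positions 78182774 to 78355788, mm10) and Gsta3 on chromosome 1 (positions 21240589 to 21265661). Gsta1 and Gsta2 are known for high levels in liver and gut, and Gsta4 encodes the enzyme that removes hydroxynonenal, an aldehyde made when lipids are oxidised. Gsta4 stood at 32.3, 41 and 32.3 FPKM in TBZ and at 46.8, 43.5 and 65.7 FPKM in Control replicates 1 to 3. Control replicate 3 was the highest and TBZ replicates 1 and 3 the lowest, with a narrow gap between TBZ replicate 2 and Control replicate 2. Its log2 fold change was -0.56 ± 0.15 (SE; edgeR adjusted p = 0.256; DESeq2 adjusted p = 0.303), and it was -0.35 without Control replicate 3. The stomach and oesophagus marker sum and the mesothelium marker sum were likewise highest in Control replicate 3 and lowest in TBZ replicates 1 and 3. The stomach and oesophagus list had a negative log2 fold change in 11 of 15 tested genes, none past the edgeR threshold, and a median of -0.37. Of these genes 5 negative and 1 positive had an unadjusted p under 0.05, and DESeq2 put 1 past the threshold, Tff2, which was higher in TBZ (log2 1.37 ± 0.32 SE, DESeq2 adjusted p = 0.0316). The part of these marker lists in the difference of Gsta4 was not tested.

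Gsta3, the other abundant alpha gene, stood at 38.3, 34.9 and 39 FPKM in TBZ and at 43.4, 41.1 and 43.6 FPKM in Control replicates 1 to 3. All TBZ values were below the lowest Control value, and the spread within each group was small. Its log2 fold change was -0.19 ± 0.05 (SE; edgeR adjusted p = 0.26; DESeq2 adjusted p = 0.0903). Here Control replicate 3 did not stand apart, and the value without it was -0.17.

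Gsta2 stood at 0.378, 0.52 and 0.308 FPKM in TBZ and at 0.923, 0.852 and 1.09 FPKM in Control replicates 1 to 3, from 13 to 25 reads in TBZ and 51 to 54 in Control. Its log2 fold change was -1.23 ± 0.27 (SE; edgeR adjusted p = 0.155; DESeq2 adjusted p = 0.0847). With limma it was -1.09, -0.69 and -0.48 at pseudocounts of 0.1, 0.5 and 1. Each Control library had close to or more than 2 times the Gsta2 reads of each TBZ library, at low depth, but the Control libraries were also larger. In FPKM the nearest values were 0.852 in Control replicate 2 and 0.52 in TBZ replicate 2. Of the 100-base stretches in Gsta2 transcripts, 28.4% also occur in another gene, mainly Gm10639, which had at most 2 reads in a library.

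Gsta1 had the lowest log2 fold change of all tested members. It had 5, 1 and 3 reads in TBZ and 80, 18 and 43 in Control replicates 1 to 3, or 0.129, 0.0256 and 0.0875 FPKM in TBZ and 1.78, 0.37 and 1.07 FPKM in Control. TBZ libraries were near the lower limit of detection, and the Control libraries differed widely among themselves. The log2 fold change was -3.68 ± 0.71 (SE, edgeR adjusted p = 0.119). With limma on FPKM it was -2.53, -1.34 and -0.88 at pseudocounts of 0.1, 0.5 and 1, none past the threshold. With no filter on low counts edgeR gave it an adjusted p of 2.73e-06. DESeq2 gave no adjusted p for it. The authors' deposited table lists a p-value of 3.93e-07 beside an adjusted p of 1, as it does for 13429 genes for which DESeq2 gave a p and no adjusted p. Gsta1 shares 80.6% of its 100-base stretches with other genes, mainly with Gm3776, which had 2, 11 and 1 reads in TBZ and 8, 6 and 3 in Control. Its level is therefore uncertain.

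**Figure D3:**
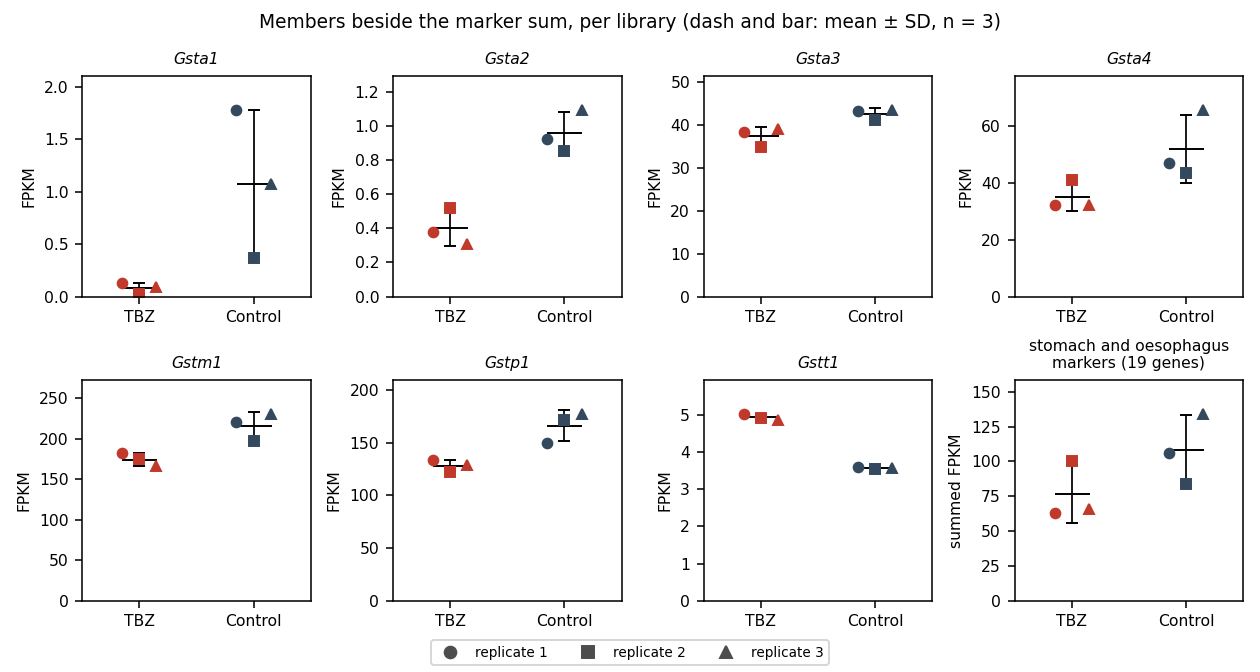
FPKM (y axis, from 0) in each TBZ and Control library for the 7 members with the smallest edgeR p. The last panel gives the summed FPKM of 19 stomach and oesophagus markers, most of it from Barx1. Points are libraries, dashes and bars the mean ± SD (n = 3 each). In the 7 genes the groups do not overlap, with TBZ below Control in all but Gstt1, and the marker sum is highest in Control replicate 3 and lowest in TBZ replicates 1 and 3.

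The mu class holds the most abundant member and showed no common direction. Its 7 genes lie within 149.1 kb on chromosome 3 (positions 107895821 to 108044894, mm10), and 4 had a positive and 3 a negative log2 fold change. Gstm1 (positions 108012255 to 108017973, minus strand), the most abundant mu gene here, stood at 182, 175 and 166 FPKM in TBZ and at 220.2, 197 and 231 FPKM in Control replicates 1 to 3. Every TBZ library was below every Control library. The mean was 174 ± 8.31 FPKM in TBZ and 216 ± 17.4 FPKM in Control (SD, n = 3 each), and TBZ over Control came to -0.31 ± 0.06 on the log2 scale (SE; edgeR adjusted p = 0.124; DESeq2 adjusted p = 0.00123).

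Gstm2, next to Gstm1 in the cluster, stood at 23.3, 25.5 and 23.3 FPKM in TBZ and at 23.3, 23.1 and 25.1 FPKM in Control replicates 1 to 3. The groups overlapped, with a log2 fold change of 0.01 ± 0.06 (SE, edgeR adjusted p = 0.961) and a 95% interval from -0.11 to 0.14. The ratio of Gstm1 to Gstm2 FPKM within a library was 7.82, 6.86 and 7.12 in TBZ and 9.44, 8.50 and 9.21 in Control. All 3 TBZ ratios were below the lowest Control ratio, so the 2 neighbours did not keep 1 ratio across the groups. This pair was chosen after its values were seen. Gstm1 shares 5.86% of its 100-base stretches with other genes, mainly the pseudogene Gstm2-ps1, which had a log2 fold change of -0.12 ± 0.14 (SE, edgeR adjusted p = 0.812).

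Gstm5, at the other end of the cluster, stood at 35.8, 36.1 and 37.6 FPKM in TBZ and at 37.1, 35.6 and 32.8 FPKM in Control replicates 1 to 3, with overlapping groups. Its log2 fold change was 0.05 ± 0.05 (SE, edgeR adjusted p = 0.802), and 13.9% of its exon bases also belong to 4933431E20Rik. Gstm6, the lowest of the class, stood at 0.708, 0.948 and 0.771 FPKM in TBZ and at 1.30, 1.01 and 1.76 FPKM in Control replicates 1 to 3. Its groups did not overlap, with a log2 fold change of -0.74 ± 0.23 (SE; edgeR adjusted p = 0.339; DESeq2 adjusted p = 0.197). Control replicate 3 was again the highest and TBZ replicates 1 and 3 the lowest, and without Control replicate 3 the value was -0.50. With limma it was -0.66, -0.49 and -0.37 at pseudocounts of 0.1, 0.5 and 1.

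Gstm3 and Gstm7 were named after their values were seen. Gstm3 stood at 4.09, 6.52 and 4.21 FPKM in TBZ and at 7.39, 6.31 and 6.77 FPKM in Control replicates 1 to 3, so that TBZ replicate 2 lay among the Control libraries and the other TBZ libraries below them (log2 -0.46 ± 0.17 SE, edgeR adjusted p = 0.434). TBZ replicate 2 was also the TBZ library with the highest sum of stomach and oesophagus markers and of mesothelium markers. The part of these markers in the result was not tested. Gstm7 had non-overlapping groups with TBZ above, at 18.3 to 20.7 FPKM in TBZ and 16.2 to 18.3 FPKM in Control (log2 0.18 ± 0.07 SE, edgeR adjusted p = 0.442).

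**Figure D4:**
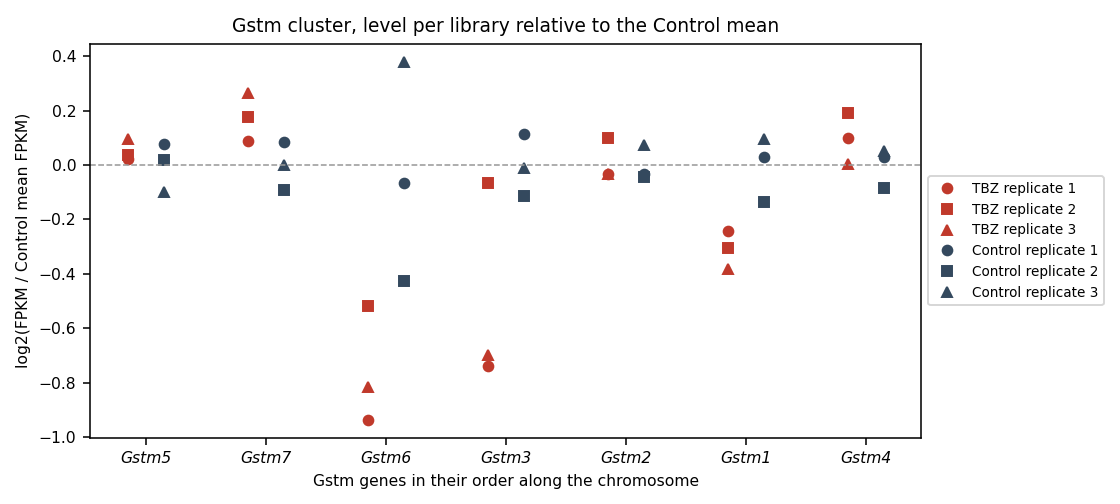
Level of the 7 Gstm genes in each library as log2 of FPKM over the Control mean FPKM (y axis), with genes in their order along chromosome 3 (x axis). Gstm1 and Gstm6 have TBZ below Control in every library, Gstm3 in TBZ replicates 1 and 3, and Gstm2, Gstm4 and Gstm5 overlap.

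Among the pi class a single gene carried nearly all reads. Gstp1 (chromosome 19, positions 4035407 to 4037921, minus strand, mm10), which encodes an enzyme found in many epithelia, stood at 134, 123 and 128 FPKM in TBZ and at 149, 172 and 177 FPKM in Control replicates 1 to 3. The 3 TBZ libraries were all below the lowest Control library. The mean was 128 ± 5.63 FPKM in TBZ and 166 ± 14.9 FPKM in Control (SD, n = 3 each). On the log2 scale TBZ over Control was -0.37 ± 0.07 (SE), with a 95% interval from -0.52 to -0.22. The edgeR adjusted p was 0.0869, the smallest over the members by that test, and the DESeq2 adjusted p was 0.000127. Without Control replicate 1, the lowest of that group, edgeR put Gstp1 past the threshold (log2 -0.45, adjusted p = 0.0234).

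Close copies of Gstp1 make its reads hard to assign. Gstp2 lies beside it on chromosome 19 and shares 46.9% of its 100-base stretches with other genes, mainly with Gstp1, which in turn shares 25.1%. Gstp2 had 54, 48 and 2 reads in TBZ and 9, 12 and 19 in Control replicates 1 to 3, so TBZ replicates 1 and 2 were above all Control libraries and TBZ replicate 3 below them (log2 1.57 ± 0.75 SE, edgeR adjusted p = 0.549). The processed pseudogene Gstp-ps, which the rule leaves out, stood at 14, 16 and 15.6 FPKM in TBZ and at 22.8, 20.6 and 19.6 FPKM in Control, also with non-overlapping groups (log2 -0.47 ± 0.09 SE; edgeR adjusted p = 0.124; DESeq2 adjusted p = 0.00697). Gstp2 and Gstp3 had no more than 1.73 FPKM in any library, and Gstp3 was not tested.

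The promoters of the members were searched for the core letters of the antioxidant response element, because that element is a known route of induction for several Gst genes. The letters TGACNNNGC and TGAGNNNGC, which cannot both match at the same position of a strand, were searched on both strands of windows of 300 bases, 250 before and 50 after the RefSeq start (GRCm38.p6), in 69 of the 78 members. At least 1 of the letter patterns was found in 21 members (30.4%) and in 30.8% of 27025 genes with a window, so the members did not hold it more often. TGACNNNGC was in 8.7% of the members and 14% of all genes, and TGAGNNNGC in 23.2% of the members and 19.8% of all genes. A match is not shown to be a bound site.

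Among the members with the lowest edgeR p-values, Gsta3, Gstp1 and Gstt1 had a match, Gsta1, Gsta2, Gstm1 and Gstm6 had none, and Gsta4 had no window. Windows of 30 bases around the matches are shown on the strand of the gene, 5′ to 3′, with the match in capitals, to let the copies be compared. Gstp1 has one match 74 bases before its start (chr19:4037967-4037996, minus strand) and another 9 bases before it (chr19:4037902-4037931, minus strand), the second read on the opposite strand. The first lies within the same 30 bases in Gstp2, 89 bases before its start (chr19:4042291-4042320, minus strand). Gstt1 has a match 89 bases before its RefSeq start (chr10:75797801-75797830, minus strand). That window lies inside the deposited gene, whose positions run to 75798584. Gsta3 has a match 121 bases before its start (chr1:21240454-21240483, plus strand).
Gstp1, first match: tccaacgtgtTGAGTCAGCatccggggcgg
Gstp2: tccaacgtgtTGAGTCAGCatccggggcgg
Gstp1, second match: gcctacgcgtGCGTCCTCActctgagtacc
Gstt1: tgctggccgcTGAGAGAGCcctgcgctctg
Gsta3: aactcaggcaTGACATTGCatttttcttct
For contrast, the 250 bases before the start of Gstm1 (chr3:108017974-108018223, minus strand), which hold neither pattern, are given whole.
Gstm1: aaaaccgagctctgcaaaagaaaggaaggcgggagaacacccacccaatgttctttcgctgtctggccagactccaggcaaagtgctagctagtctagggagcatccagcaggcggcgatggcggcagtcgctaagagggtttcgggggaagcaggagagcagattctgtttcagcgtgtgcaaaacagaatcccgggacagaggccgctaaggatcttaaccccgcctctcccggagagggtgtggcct

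Gstt1 was the member that lay higher in TBZ with the least spread. It lies on chromosome 10 (positions 75783813 to 75798584, minus strand, mm10) and encodes a theta enzyme that acts on small halogenated compounds. It stood at 5.03, 4.92 and 4.87 FPKM in TBZ and at 3.61, 3.54 and 3.56 FPKM in Control replicates 1 to 3. The groups were far apart relative to the spread within each, at 4.94 ± 0.0814 FPKM in TBZ and 3.57 ± 0.037 FPKM in Control (SD, n = 3 each). With 267 to 311 reads in TBZ and 228 to 275 in Control, counting error makes so small a spread an unsure measure. The log2 fold change was 0.47 ± 0.09 (SE; edgeR adjusted p = 0.124; DESeq2 adjusted p = 0.034), and limma on log2(FPKM + 0.5) gave an adjusted p of 0.0485. No 100-base stretch of Gstt1 occurs in another gene. Of its neighbours on chromosome 10, Gstt2 had a log2 fold change of -0.02 ± 0.10 and Gstt3 of -0.05 ± 0.17 (SE, edgeR), and Gstt4 had at most 2 reads in a library.

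The omega, kappa and zeta classes and the membrane-bound enzymes had overlapping groups. Gsto1, which has dehydroascorbate reductase and thioltransferase activity, stood at 28.9, 28.7 and 24.7 FPKM in TBZ and at 29.4, 26.1 and 37.9 FPKM in Control replicates 1 to 3. Control replicate 3 was the highest, and the log2 fold change of -0.18 ± 0.12 (SE, edgeR adjusted p = 0.689) was -0.01 without it. Gstk1, an enzyme of mitochondria and peroxisomes, stood at 4.69, 4.58 and 4.44 FPKM in TBZ and at 4.15, 4.62 and 4.99 FPKM in Control, and its 95% interval ran from -0.24 to 0.24.

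Gstz1 catalyses a step of tyrosine breakdown. It stood at 10.8, 10.1 and 11.4 FPKM in TBZ and at 9.76, 9.99 and 10.3 FPKM in Control replicates 1 to 3 (log2 0.11 ± 0.05 SE, edgeR adjusted p = 0.576), with 12.2% of its exon bases also in Pomt2 or Gm6566. Mgst1, a membrane-bound transferase of the endoplasmic reticulum and the outer mitochondrial membrane, stood at 61.5, 58.3 and 66.7 FPKM in TBZ and at 59.1, 57 and 56 FPKM in Control (log2 0.12 ± 0.05 SE, edgeR adjusted p = 0.544). In each of these genes at least 1 TBZ library lay within the Control range. Mgst3 and Mgst2 had log2 fold changes of -0.02 ± 0.09 and 0.26 ± 0.18 (SE, edgeR).

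Among the glucuronosyltransferases, the Ugt2b genes had the highest levels, and none of the 6 tested genes of either family passed with edgeR or DESeq2 or had an unadjusted p under 0.05. Ugt2b34 stood at 35.7, 35 and 35.8 FPKM in TBZ and at 38.8, 35.5 and 30.3 FPKM in Control replicates 1 to 3, with a log2 fold change of 0.03 ± 0.08 (SE, edgeR adjusted p = 0.94). TBZ libraries were close together and lay inside the Control range, and the value was -0.06 without Control replicate 3. Ugt2b35 was at 19.8 FPKM on average over the 6 libraries (log2 -0.05 ± 0.06 SE) and Ugt2b36 at 1.24 FPKM (log2 -0.37 ± 0.18 SE), neither past the edgeR threshold. No member of Ugt1a, the cluster that includes the bilirubin enzyme gene Ugt1a1, reached 1 FPKM. The 9 Ugt1a genes overlap on chromosome 1 between positions 88055388 and 88220002 (mm10). Between 50.3% and 82.7% of the exon bases of each belong to other genes, so reads of the shared exons cannot be assigned to 1 of them. If such reads were left uncounted, the FPKM of each Ugt1a gene understates its level. Ugt1a7c had the most reads, at 0.791, 0.748 and 0.681 FPKM in TBZ and 0.909, 0.886 and 0.599 FPKM in Control (edgeR adjusted p = 0.884).

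Of the 21 sulfotransferases 11 had no read, among them all 8 Sult2a genes, whose products sulfate steroids and bile acids in mouse liver. Sult4a1, a sulfotransferase known from brain, was the single one at 1 FPKM or more. It stood at 2.15, 2.01 and 1.80 FPKM in TBZ and at 2.26, 2.52 and 2.62 FPKM in Control replicates 1 to 3, so TBZ lay below Control in every library (log2 -0.31 ± 0.12 SE, edgeR adjusted p = 0.447, DESeq2 adjusted p = 0.55). Of the other tested genes, Sult2b1, which makes cholesterol sulfate, had TBZ above Control without overlap. Its mean was 0.346 ± 0.00996 FPKM in TBZ and 0.286 ± 0.00987 FPKM in Control (SD, n = 3 each, edgeR adjusted p = 0.68). With 50 to 56 reads in TBZ and 48 to 59 in Control, this small spread is also an unsure measure.

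The aldo-keto reductases showed mostly small differences. Of 11 tested genes 8 had a log2 fold change between -0.1 and 0.1, 2 (18.2%) had an unadjusted p under 0.05, against 9.61% of all tested genes, and none passed with edgeR or DESeq2. Akr1a1, an aldehyde reductase that in mouse also feeds ascorbate synthesis, stood at 190, 180 and 183 FPKM in TBZ and at 186, 185 and 183 FPKM in Control replicates 1 to 3. The groups overlapped, and on the log2 scale the 95% interval was -0.09 to 0.08, the narrowest of the tested members. Akr1b3, the aldose reductase that turns glucose into sorbitol, averaged 6.77 FPKM over the 6 libraries (log2 -0.08 ± 0.06 SE, edgeR adjusted p = 0.683).

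Akr1c12 and Akr1c13 lie in the same cluster on chromosome 13, with Akr1c19 between them, and share 134 of their 100-base stretches. Akr1c12 stood at 31.7, 27.4 and 30.5 FPKM in TBZ and at 28.7, 25.5 and 24 FPKM in Control replicates 1 to 3, with 1 TBZ library below the highest Control library (log2 0.20 ± 0.08 SE, edgeR adjusted p = 0.465). Akr1c13 stood at 29.9, 30.1 and 30.6 FPKM in TBZ and at 31, 28.2 and 28.2 FPKM in Control (log2 0.05 ± 0.05 SE, edgeR adjusted p = 0.791). Akr1b8, named after its values were seen, was the reductase whose groups did not overlap, at 4.93, 4.59 and 4.50 FPKM in TBZ and 5.58, 5.61 and 5.56 FPKM in Control (log2 -0.26 ± 0.09 SE, edgeR adjusted p = 0.403). Akr1c18, which inactivates progesterone, and Akr1d1, which acts in bile acid synthesis, had at most 4 and 9 reads in a library.

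Around the families, 3 NRF2 targets outside the families fell, and one of them, Gclc, also belongs to the genes that supply cofactors. In the list of cofactor synthesis 1 of 15 genes fell with edgeR, against 0.0329% of all tested genes, 14 did not pass and none rose. The median log2 fold change was -0.07, and 5 genes were negative at an unadjusted p under 0.05, against 4.54% of all tested genes. DESeq2 put 3 lower, against 0.336% of all genes. Gclc, Gclm, Gsr, G6pdx and Pgd are on this list and on that of the NRF2 targets, so the lists are not separate observations. Gclc, whose product limits the rate of glutathione synthesis, fell to 17.7, 17 and 17.4 FPKM in TBZ replicates 1 to 3, against 22.3, 22.4 and 25.1 FPKM in Control (edgeR adjusted p = 0.0292). Ugdh, which makes UDP-glucuronic acid, had a log2 fold change of -0.19 ± 0.04 (SE; edgeR adjusted p = 0.124; DESeq2 adjusted p = 0.033), and Papss1, which makes the sulfate donor, of 0.08 ± 0.04 (SE).

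The NRF2 list held 35 genes, both targets and regulators of the pathway such as Nfe2l2, Keap1, Bach1, Nfe2l1, Maff, Mafg and Mafk. Of the 35 genes 3 fell and 32 did not pass, with a median of -0.17. A negative log2 fold change was found for 27, of which 21 had an unadjusted p under 0.05. Over all tested genes 0.0329% fell, 49.9% were negative and 4.54% were negative at an unadjusted p under 0.05. DESeq2 put 6 of the list lower and 1 higher in TBZ, Cat (log2 0.21). Those that fell were the quinone reductase gene Nqo1 (log2 -1.06 ± 0.12 SE), the sulfiredoxin gene Srxn1 (-0.77 ± 0.06) and Gclc (-0.42 ± 0.05), with edgeR adjusted p-values of 0.016, 0.00333 and 0.0292. For each of them the fitted difference was larger than that of Gstm1 and Gstp1 in the same libraries, though Gclc lay close to Gstp1 (-0.37 ± 0.07). Some other members, such as Gsta4 (-0.56 ± 0.15) and Gsta2 (-1.23 ± 0.27), had a lower log2 fold change than Gclc without passing the edgeR threshold. The list was made with earlier results of these data known and is no independent evidence of a direction.

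Of 20 tested aldehyde and carbonyl enzymes outside the families none passed with edgeR. An unadjusted p under 0.05 was found for 6, against 9.61% of all tested genes. DESeq2 put 1 higher and 2 lower, against 1.1% and 0.336% of all genes. Cbr1 and Cbr3 of this list are also on the NRF2 list. Cbr3, a carbonyl reductase, had a log2 fold change of -1.17 ± 0.18 (SE, edgeR adjusted p = 0.0523, DESeq2 adjusted p = 3.97e-06). For the mitochondrial dehydrogenase gene Aldh1b1 it was 0.32 ± 0.07 (SE, edgeR adjusted p = 0.146, DESeq2 adjusted p = 0.00363). Aldh1a7 was also lower with DESeq2 (log2 -0.96 ± 0.24 SE, edgeR adjusted p = 0.202, DESeq2 adjusted p = 0.000706). Among 18 further glutathione-dependent enzymes none passed with edgeR, and 1 had an unadjusted p under 0.05, against 9.61% of all tested genes. Gpx2, an epithelial glutathione peroxidase that is also on the NRF2 list, was lower with DESeq2 (log2 -0.35 ± 0.08 SE, DESeq2 adjusted p = 0.00448). None of 14 tested genes of conjugate export and breakdown passed with edgeR or DESeq2 or had an unadjusted p under 0.05, with Ggt1 at -0.16 ± 0.08 and Ggt7 at -0.24 ± 0.13 (log2, SE). The same held for the 9 tested of 14 genes in the list of the receptors AhR, CAR and PXR with their targets. There Ahr had a log2 fold change of -0.11 ± 0.06 and Cyp1b1 of -0.15 ± 0.09 (SE). The CAR gene Nr1i3 and the targets Cyp1a2, Cyp2b10, Cyp2c55 and Cyp3a11 lay under 0.1 FPKM on average. Cyp2b10 and Cyp3a11 had no read, and these Cyp targets were not tested.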

How the data were processed

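Poly-A RNA from 3 TBZ and 3 Control samples was sequenced in read pairs. The submitters' processing notes name STAR, HTSeq and the build mm10; their versions are not given in the sources used here. The deposited read counts are whole numbers with no normalization, per the file headers. FPKM columns stand beside them, scaled by the authors to gene length and library size. Their signal columns (group means of scaled counts), log2 fold changes and p-values were deposited too, and their tool is not given.

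Counts were tested with the edgeR quasi-likelihood test (TMM scaling, filterByExpr, Benjamini-Hochberg adjustment over all 18226 tested genes), and each SE came from the fold change and its F value. DESeq2, limma on FPKM, other scaling and filtering, the replicate number as a block and leaving out each library were alternatives. Levels are FPKM. The test was tried on simulated data. Stretches of 100 bases were compared over GENCODE M21 transcripts, where 74 of 78 members had the deposited start and end. Members, lists and tests were chosen with earlier results of these data known. Given in every library were members past a threshold (edgeR, DESeq2 or deposited), the 8 with the smallest p, the highest of each family at 1 FPKM or more and the 12 highest by FPKM; other members were named after their values were seen. Other marker lists showed no gene past the edgeR threshold: endocrine (12 tested), mesenchyme (14), mesothelium (8), endothelium (10), macrophage (12), erythroid (9), intestine (6), and neural crest, glia and neurons (11). An unadjusted p under 0.05 was found for 3, 1, 1, 1, 0, 2, 0 and 5 genes of these lists in that order, and DESeq2 put 1 endocrine gene past the threshold and none of the others. Tools were edgeR 4.0.16, DESeq2 1.42.0 and limma 3.58.1 under R 4.3.3. Strand use in counting is not given in the sources used here. Intervals are at 95% and counting limits cover counting error only.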

Additional observations from a re-analysis of the deposited data

How the results depend on the processing

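The number of changed members was 0 with edgeR and with RLE scaling, 7 with no filter on low counts (Gsta1, Gsta2, Gsta3, Gsta4, Gstm1, Gstp1 and Gstt1), 3 with DESeq2 and 1 (Gstt1) with limma on log2(FPKM + 0.5), log2(FPKM + 0.1) or log2(FPKM + 1). Leaving out 1 library gave 0 to 1 members, the 1 being Gstp1 without Control replicate 1. Over all genes the count was 34, against 445 with no filter, 222 with DESeq2 and 14, 13 and 14 with limma on log2(FPKM + 0.5), log2(FPKM + 0.1) and log2(FPKM + 1). It was 5 to 36 with 1 library left out: 11 without TBZ replicate 1, 5 without TBZ replicate 3 and 13 without Control replicate 2. With the replicate block 5 genes and 0 members passed. The labels do not say whether equal replicate numbers pair the samples. Same-numbered deviations from the group mean correlated at 0.00174, -0.153 and -0.0766, and samples did not correlate best with their own number. With 3 libraries a group these values cannot settle whether samples were paired.

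Of 247 alternative values for the 19 named members, 220 kept direction and side of the threshold, 14 passed the threshold only in the alternative and 13 changed sign. The sign held for 15 members in every alternative. It changed for Akr1a1 (0.018, 0.00078, 0.0011 and 0.00044 without TBZ replicates 2 and 3 and Control replicates 1 and 2; range with 1 library left out -0.025 to 0.018), Gstk1 (0.0019 with the replicate block, 0.00013 with limma on log2(FPKM + 0.1), and 0.016, 0.0059 and 0.065 without TBZ replicate 3 and Control replicates 2 and 3; range -0.071 to 0.065), Gstm2 (-0.029, -0.0043 and -0.0061 without TBZ replicate 2 and Control replicates 1 and 2; range -0.029 to 0.053) and Ugt2b34 (-0.061 without Control replicate 3; range -0.061 to 0.11). Each of these lies near 0, and the cause was not tested. Without Control replicate 3 the log2 fold change of Gsta4 was -0.35 and of Gsto1 -0.01. The number of expressed members was 32 at 1 FPKM, 64 with at least 1 read, 48 after the filter, 40 at 0.5 FPKM and 22 at 5 FPKM. With 3 libraries a group and genes such as Gsta1 at 1 to 5 reads in TBZ, depth limits the lowest members.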
